A study of Mus musculus with 14 samples.

Results

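The comparison described here was between cells that had switched on a control short hairpin RNA (shRNA) and cells of the same line that had not, 2 days after doxycycline was added. It used 4 of the 14 RNA sequencing libraries of the study, chosen by their titles: 2 libraries of induced cells and 2 of uninduced cells, all with the control hairpin shRen713. The remaining 10 libraries served to estimate the spread between replicates and to give levels at day 0 and day 4. The cells were KL974, a single mouse leukemia line whose label reads Murine AML (acute myeloid leukemia) and whose genotype is Trp53R172H;shMll3;shNf1, so that induced and uninduced groups alike carried a mutant Trp53 and hairpins against Mll3 (Kmt2c) and Nf1. They were grown with the mouse cytokines IL3, IL6 and SCF, had been transduced with a lentivirus whose hairpin and blue fluorescent protein (BFP) respond to doxycycline, and were separated by flow cytometry. Induced cells were BFP positive and uninduced cells BFP negative, and both had received doxycycline. Day 4 held the same pair of populations, with 2 libraries each, and day 0 held 2 libraries of untreated cells whose labels do not say that they were sorted. The sort thus compared cells within doxycycline-treated cultures, and hairpin expression, BFP expression and whatever else differs between cells on either side of the gate cannot be told apart. No label says that replicates are separate cultures, and the p-values therefore reflect only how far these particular libraries differ, which could be a technical spread.

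shRen713 is a control hairpin, and such hairpins are used because their target is not a mouse gene. A doxycycline-inducible hairpin is cut by the cell's own microRNA machinery, and the linked BFP reports which cells transcribe it. Several of the genes below belong to the amino acid stress response. In that response, kinases that sense uncharged tRNA, misfolded protein or other stress slow translation, and the transcription factor ATF4 is then translated and switches on genes that make, import and attach amino acids to tRNA.

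The 4 libraries held 3008718 and 1500031 counts in induced cells and 2342968 and 4342673 counts in uninduced cells, within a series range of 913482 to 10271698. A count of 0 allowed up to 0.997 and 2 CPM (counts relative to each library's total) in induced cells and up to 1.28 and 0.691 CPM in uninduced cells, counting error only. The induced libraries stood apart from the other control libraries on the second principal component, at -18.2 and -30.1, against 5.51 and -0.953 in uninduced cells, 17.1 and 17 at day 0, and 5.49 to 11 at day 4. Induced replicate 2 was the shallowest of the 4 and lay farthest out. The targets of the engineered alleles and of the study's other hairpins did not pass the test between induced and uninduced cells: log2 fold changes were -0.06 ± 0.09 for Trp53, -0.08 ± 0.10 for Kmt2c, -0.20 ± 0.15 for Nf1 and 0.13 ± 0.09 for Ogdh (standard errors). The control hairpin has no mouse target by which its induction could be read, and BFP was not analysed here.

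Of 10791 genes tested with edgeR's quasi-likelihood test, 672 differed between induced and uninduced cells at day 2 at a Benjamini-Hochberg adjusted p under 0.05 (6.23%). Of these, 324 rose (3.0%) and 348 fell (3.22%). Counts of called genes on the lists below are to be read beside these shares. The falls were larger: 120 genes fell by over 2-fold while 28 rose by as much, and 41 fell by over 4-fold while 3 rose by as much. The median log2 fold change was 0.49 among genes that rose and -0.755 among genes that fell, beside 0.00025 over all genes tested. Genes that fell were also less abundant, with a median level of 33.4 CPM over the 4 libraries, against 82.8 CPM for those that rose and 43.2 CPM for all genes. Of the 120 large falls, 104 were genes under 20 CPM, as were 22 of the 28 large rises. Fewer cells of a type and less RNA per cell cannot be told apart in bulk libraries. The number called depended on the libraries: it was 228 without induced replicate 1, 450 without induced replicate 2 (219 falls), 413 without uninduced replicate 1 and 624 without uninduced replicate 2, 390 with the 4 libraries thinned to equal depth, and 223 with DESeq2, 222 of which edgeR also called.

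**Figure D1:**
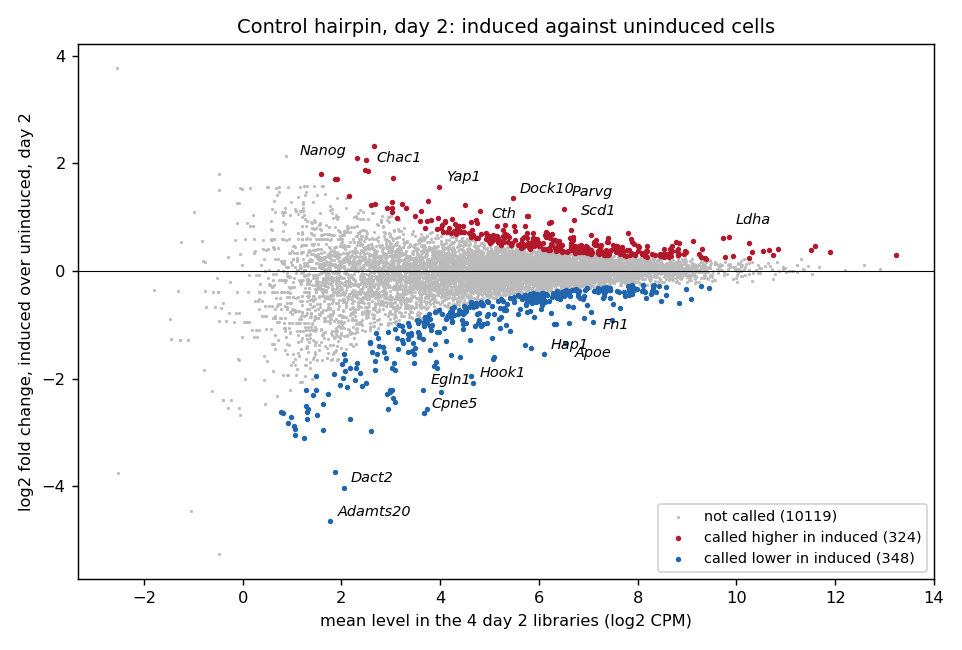
Each point is a tested gene, with its mean level in the 4 day 2 libraries (log2 CPM) on the horizontal axis and its log2 fold change, induced over uninduced cells, on the vertical axis. The 324 genes called higher are red, the 348 called lower are blue, and the largest falls, such as Adamts20 and Dact2, lie at low levels.

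Genes of the amino acid stress response rose together. Of 42 genes on a list of ATF4 targets and partners, 31 were tested, 15 rose and 1 fell, beside the 3.0% and 3.22% of all genes, and 28 of the 31 had a log2 fold change above 0 (median 0.385). Atf4 itself measured 609 and 569 CPM in induced cells, against 489 and 523 CPM in uninduced cells, and did not pass (0.22 ± 0.08, adjusted p = 0.0794). That gene is controlled mainly through translation of its mRNA. At day 4 none of the 31 was called and their median was 0.019.

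The largest rises on the list were those of Chac1, Atf5 and Cth. Cth (GRCm38 chr3:157894248-157925077, minus strand) makes cystathionine gamma-lyase, which releases cysteine from cystathionine. It measured 75.4 and 70.2 CPM in induced cells, against 34.7 and 37.1 CPM in uninduced cells (log2 fold change 1.02 ± 0.14, adjusted p = 1.75e-07). The day 0 level was 29.5 and 25.4 CPM, so the induced libraries at day 2 lay above every other control library. Chac1 (chr2:119351229-119354381, plus strand) makes an enzyme that breaks down glutathione and is a sensitive target of the stress response. It had 11 and 6.81 CPM in induced cells, against 2.57 and 2.10 CPM in uninduced cells (2.06 ± 0.45, adjusted p = 0.00127), on 42 counts in induced and 15 in uninduced cells. Atf5, a transcription factor related to Atf4, had 16.9 and 17.0 CPM in induced cells, against 6.85 and 8.39 CPM in uninduced cells (1.11 ± 0.28, adjusted p = 0.00655), and its exons overlap those of Il4i1 and Nup62. The calls of Chac1 and Atf5 were lost without induced replicate 1 (1.57 and 1.12, adjusted p = 0.271 and 0.13) and by DESeq2 (1.99 and 1.14, adjusted p = 0.16 and 0.198). Chac1 also missed the threshold with thinned libraries (2.20, adjusted p = 0.0506), while Cth was called in all 13 alternatives.

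Some genes that make serine, proline and asparagine rose by smaller amounts. Psat1 and Psph catalyse the later steps of serine synthesis. Psat1 had 752 and 694 CPM in induced cells, against 511 and 572 CPM in uninduced cells (0.42 ± 0.08, adjusted p = 8.97e-05). Psph had 102 and 78.4 CPM in induced cells, against 52.2 and 61.8 CPM in uninduced cells (0.67 ± 0.12, adjusted p = 9.7e-05), but its exons overlap Cct6a. Phgdh, which makes the enzyme that opens the pathway, did not pass (-0.06 ± 0.11). Asns, asparagine synthetase, had 1126 and 1004 CPM in induced cells, against 845 and 922 CPM in uninduced cells (0.27 ± 0.07, adjusted p = 0.0109). Pycr1, which completes proline synthesis, had 30.6 and 19.8 CPM in induced cells, against 14.6 and 15.9 CPM in uninduced cells (0.80 ± 0.22, adjusted p = 0.013). Mthfd2, a mitochondrial folate enzyme, also rose (0.39 ± 0.10, adjusted p = 0.00642). In the wider list of serine, glycine and one-carbon genes 3 of 19 tested rose, those being Psat1, Psph and Mthfd2, none fell, and the median was 0.0889. Psat1 kept its call in all 13 alternatives. Without induced replicate 1 the other calls were lost (Psph 0.44, Asns 0.18, Pycr1 0.36 and Mthfd2 0.34, adjusted p = 0.207, 0.321, 0.665 and 0.186). Without uninduced replicate 1 those of Asns (0.21), Pycr1 (0.75) and Mthfd2 (0.31) were lost (adjusted p = 0.131, 0.067 and 0.0883), and without uninduced replicate 2 that of Pycr1 (0.89, adjusted p = 0.0546). DESeq2 called neither Pycr1 (0.77) nor Mthfd2 (0.39).

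Of 8 tested solute carrier genes on the same list, which bring amino acids into the cell, 3 rose and 5 were not called. Slc1a5, a sodium-coupled carrier of glutamine and other neutral amino acids, had 188 and 204 CPM in induced cells, against 143.9 and 127.8 CPM in uninduced cells (0.53 ± 0.10, adjusted p = 6.54e-05). Slc7a5, the light chain of a carrier of leucine and other large neutral amino acids, had 342 and 337 CPM in induced cells, against 260 and 235 CPM in uninduced cells (0.46 ± 0.09, adjusted p = 0.000107). Slc7a1, a carrier of arginine and lysine, rose too (0.39 ± 0.09, adjusted p = 0.00206), a call lost without uninduced replicate 2 (0.27, adjusted p = 0.0974). The groups did not overlap for any of the 3. Relative to day 0 Slc1a5 was higher in induced cells (0.55, adjusted p = 2.4e-05) and near 0 in uninduced cells (0.02, adjusted p = 0.952), whereas Slc7a5 did not pass in induced cells (0.08, adjusted p = 0.554) and fell in uninduced cells (-0.38, adjusted p = 0.0012). Slc7a11, which imports cystine, and Slc3a2, the shared heavy chain, did not pass between induced and uninduced cells (0.25 ± 0.19 and 0.17 ± 0.09). Nor did Slc6a9 (0.47 ± 0.19, adjusted p = 0.134), Slc1a4 (0.33 ± 0.13, adjusted p = 0.145) or Slc38a2 (0.00021 ± 0.08, adjusted p = 0.999), carriers of glycine and other small neutral amino acids.

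The called members of the list also included regulators and brakes on growth. Ddit4 and Sesn2 restrain the growth kinase mTORC1, Trib3 is a feedback pseudokinase, and Cebpg is a bZIP partner of ATF4. Ddit4 had 98.1 and 79.7 CPM in induced cells, against 64.2 and 55.7 CPM in uninduced cells and 22.4 and 15.6 CPM at day 0 (0.62 ± 0.13 for induced over uninduced, adjusted p = 0.000698). Both day 2 populations thus lay above day 0 for Ddit4, by 2.25 in induced and 1.63 in uninduced cells on the log2 scale. Sesn2 (0.60 ± 0.15), Cebpg (0.40 ± 0.11) and Trib3 (0.66 ± 0.19) also passed, with adjusted p = 0.00572, 0.0139 and 0.0196. For Trib3 the libraries overlapped, at 51.6 and 26.6 CPM in induced cells and 31.7 and 23.6 CPM in uninduced cells, and without induced replicate 1 the difference was 0.00. Without that library the calls of Ddit4 (0.43), Sesn2 (0.50) and Cebpg (0.45) were lost as well (adjusted p = 0.244, 0.253 and 0.0928). Cebpg was not called without induced replicate 2 (0.38) or uninduced replicate 1 (0.33), nor Sesn2 (0.41) and Trib3 (0.43) without uninduced replicate 2. The 1 member that fell was Sqstm1, an autophagy receptor that also belongs to the antioxidant response, at 173 and 162 CPM in induced cells and 217 and 218 CPM in uninduced cells (-0.37 ± 0.09, adjusted p = 0.00404). Its call was lost without induced replicate 2 (-0.32, adjusted p = 0.064). Over the whole list the 15 rises became 5 without induced replicate 1, 11 without uninduced replicate 1, 7 with thinned libraries and 7 with DESeq2.

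Of the 20 cytosolic aminoacyl-tRNA synthetases, which attach amino acids to tRNA, 6 rose and none fell, beside the 3.0% and 3.22% of all genes. Of these 20, 17 had a log2 fold change above 0 (median 0.15). Cars, the cysteine enzyme, changed most, with 119 and 134.9 CPM in induced cells, against 77.9 and 71.6 CPM in uninduced cells (0.76 ± 0.11, adjusted p = 7.2e-07), and was called in all 13 alternatives. Nars, Lars, Tars, Sars and Eprs rose by 0.32, 0.31, 0.31, 0.27 and 0.23 on the log2 scale. Without induced replicate 1 none of these 5 was called (0.30, 0.29, 0.24, 0.27 and 0.27, adjusted p = 0.069 to 0.244), and the list had 1 call. Without induced replicate 2, Sars (0.28) and Eprs (0.20) were not called, and without uninduced replicate 1, Lars (0.18), Sars (0.18) and Eprs (0.20) were not. A fit to the 4 day 2 libraries alone also left 1 call, and thinned libraries or DESeq2 left 3.

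The promoters of the 15 stress genes that rose were searched for the ATF4 element TGATGNAA on both strands, in RefSeq windows (GRCm38.p6) that run from 250 bases before to 50 bases after each gene's start. Windows were found for 12 of the 15, and 4 of these (33.3%) held the element, as did 3 of 15 windows of the other tested members (20%), 163 of 8304 windows of tested genes (1.96%) and 1304 of 32851 windows in the table (3.97%). Among all genes called at day 2 the element stood in 8 of 249 windows of genes that rose (3.21%) and 3 of 265 windows of genes that fell (1.13%). The 3 other tested members with the element, Slc7a11 (2 matches), Slc1a4 and Pck2, were not called and their windows are not shown. The 4 called genes with the element were Chac1, Trib3, Asns and Pycr1. Without induced replicate 1 their log2 fold changes were 1.57, 0, 0.18 and 0.36. The 4 windows of these called genes are shown 5′ to 3′ on the gene's strand, with the element in capitals, read on either strand. They lie at chr2:119350992-119351291 (Chac1, plus strand), chr2:152344011-152344310 (Trib3, minus), chr6:7693160-7693459 (Asns, minus) and chr11:120643699-120643998 (Pycr1, minus).
Chac1: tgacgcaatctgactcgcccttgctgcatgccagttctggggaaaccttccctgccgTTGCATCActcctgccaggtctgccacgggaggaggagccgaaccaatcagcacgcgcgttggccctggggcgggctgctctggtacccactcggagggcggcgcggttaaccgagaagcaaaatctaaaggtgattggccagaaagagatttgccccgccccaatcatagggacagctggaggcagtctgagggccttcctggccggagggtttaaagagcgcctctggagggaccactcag
Trib3: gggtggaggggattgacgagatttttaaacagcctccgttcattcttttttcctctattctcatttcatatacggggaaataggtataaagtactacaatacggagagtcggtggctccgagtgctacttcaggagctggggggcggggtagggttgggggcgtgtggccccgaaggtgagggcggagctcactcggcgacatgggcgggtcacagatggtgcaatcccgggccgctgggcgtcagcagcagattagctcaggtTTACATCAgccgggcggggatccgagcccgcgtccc
Asns: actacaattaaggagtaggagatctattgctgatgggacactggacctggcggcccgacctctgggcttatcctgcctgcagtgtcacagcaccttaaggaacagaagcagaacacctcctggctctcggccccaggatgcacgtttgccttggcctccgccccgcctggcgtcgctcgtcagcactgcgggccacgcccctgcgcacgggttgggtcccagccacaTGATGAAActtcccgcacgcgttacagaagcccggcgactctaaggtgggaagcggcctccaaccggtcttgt
Pycr1: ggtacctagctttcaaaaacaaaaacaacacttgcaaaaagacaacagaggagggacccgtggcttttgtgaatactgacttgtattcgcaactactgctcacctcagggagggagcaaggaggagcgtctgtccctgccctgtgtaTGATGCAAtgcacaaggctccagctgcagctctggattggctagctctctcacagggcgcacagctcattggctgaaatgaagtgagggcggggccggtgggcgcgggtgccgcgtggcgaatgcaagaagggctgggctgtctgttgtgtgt
The elements began at -193 in Chac1, 14 in Trib3, -23 in Asns and -103 in Pycr1, counted from the start site. A match is a description of these letters and not evidence of binding. Cth was not among the windows.

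**Figure D2:**
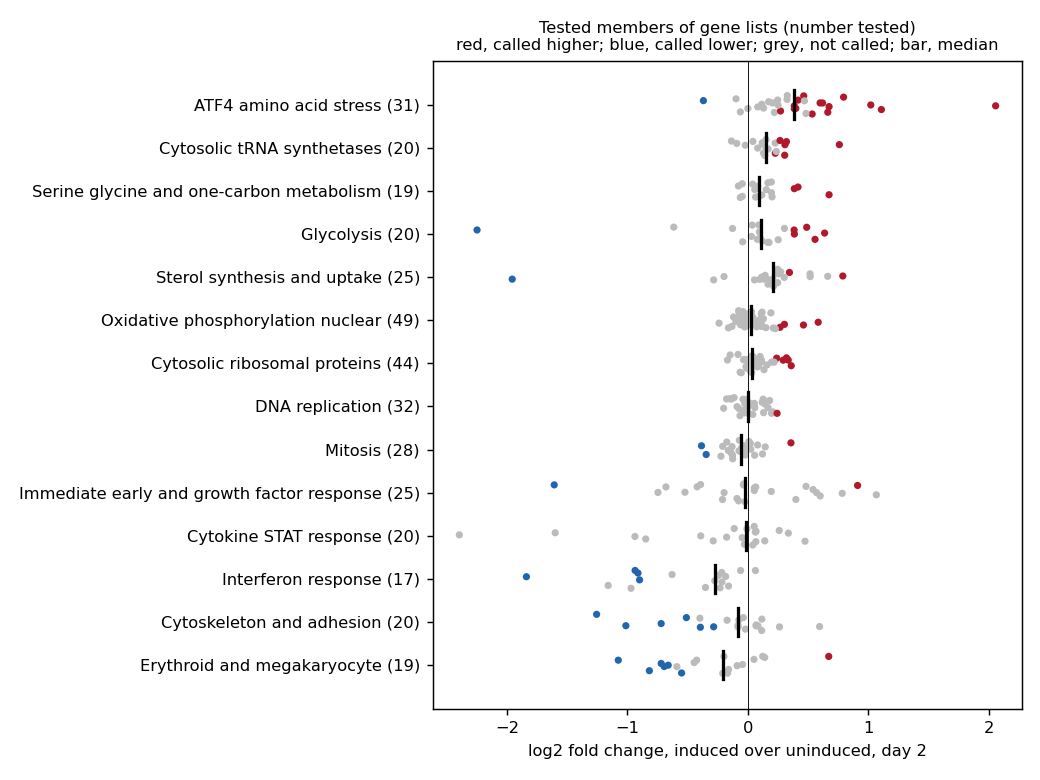
Each point is a tested gene of a list, placed by its log2 fold change of induced over uninduced cells at day 2, with the number tested in parentheses and the median as a bar. Points are red where called higher, blue where called lower and grey where not called. The ATF4 list has 15 red points and 1 blue point, and the interferon list 4 blue points.

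Glycolysis genes included 5 rises among 20 tested, with 1 fall and a median of 0.111, beside the 3.0% and 3.22% of all genes. Ldha, which turns pyruvate into lactate, had 1192 and 1043 CPM in induced cells, against 702 and 738 CPM in uninduced cells and 538 and 541 CPM at day 0 (0.64 ± 0.07 for induced over uninduced, adjusted p = 2.52e-09). Aldoa, the aldolase, had 703 and 609 CPM in induced cells, against 470 and 430 CPM in uninduced cells (0.56 ± 0.08, adjusted p = 2.1e-06), and its exons overlap Fam57b. Pgk1 (0.39 ± 0.09), Pgam1 (0.49) and the lactate carrier Slc16a1 (0.38 ± 0.09) were also higher. The fall was that of Eno2, the neuron-type enolase, with 3.10 and 2.04 CPM in induced cells, against 14.1 and 12.6 CPM in uninduced cells (-2.25 ± 0.39, adjusted p = 4e-05). Ldha, Aldoa and Eno2 were called in all 13 alternatives. Without induced replicate 1 Pgk1 (0.29) and Pgam1 (0.61) were not. Pgam1 was also lost without induced replicate 2 (0.42) or uninduced replicate 2 (0.32), and Pgk1 (0.33) and Slc16a1 (0.28) without uninduced replicate 1. Of 18 hypoxia genes 3 rose and 1 fell (median 0.0758), beside the same shares of all genes. The fall was Egln1, an oxygen-sensing prolyl hydroxylase, with 5.51 and 2.73 CPM in induced cells and 21 and 21.2 CPM in uninduced cells (-2.2 ± 0.29, adjusted p = 1.18e-07), called in all alternatives.

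Lipid genes were split. Scd1, the main desaturase of saturated fatty acids, had 142.9 and 130.2 CPM in induced cells, against 73.7 and 70.7 CPM in uninduced cells and 87.6 and 72.6 CPM at day 0 (0.94 ± 0.11 for induced over uninduced, adjusted p = 2.58e-09). Its relative Scd2 had 1650.5 and 1708.5 CPM in induced cells, against 1338.6 and 1270.4 CPM in uninduced cells (0.36 ± 0.07, adjusted p = 0.000428). These were the 2 calls among 13 tested genes of fatty acid synthesis (median 0.0607). Of 25 genes of sterol synthesis and uptake 2 rose (Fdps and Dhcr7) and 1 fell, with 22 above 0 and a median of 0.207. Both desaturases were called in all 13 alternatives. Fdps (0.79) and Dhcr7 (0.35) were not called without induced replicate 1 (0.85 and 0.25), and Fdps was also lost without induced replicate 2 (0.76) or uninduced replicate 1 (0.71), Dhcr7 without uninduced replicate 2 (0.31).

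Calls among genes of mitochondria, protein folding and antioxidant defence are set beside the 3.0% of all genes that rose and the 3.22% that fell. No call was made among 22 genes of the tricarboxylic acid cycle, 16 mitochondrial chaperones and stress genes or 16 cytosolic heat shock genes, with medians of 0.0903, 0.0576 and 0.109. Of 49 nuclear genes of oxidative phosphorylation 4 rose and none fell (median 0.0239). The largest of these was Uqcrc2, a core subunit of complex III, with 301 and 259 CPM in induced cells and 173 and 201 CPM in uninduced cells (0.58 ± 0.09, adjusted p = 3.06e-06). Uqcrc2 was called in all 13 alternatives, Cox6b1 in 12, Cox7a2 in 9 and Atp5c1 in 8. Of 22 genes of endoplasmic reticulum folding only Creld2 was called, and it fell (-0.51). That call was lost without induced replicate 2 (-0.39, adjusted p = 0.0987) or uninduced replicate 2 (-0.47, adjusted p = 0.0545). Among antioxidant genes 2 of 18 rose and 1 fell, and among 19 genes of cysteine and glutathione metabolism 2 rose and 2 fell, with medians of 0.0837 and 0.0385. The antioxidant rises, Prdx1 and Taldo1, were called in 10 and 6 of the 13 alternatives. The falls in glutathione metabolism were Gpx1, a glutathione peroxidase (286 and 241 CPM in induced cells, against 352 and 363 CPM in uninduced cells, -0.42 ± 0.09, adjusted p = 0.000571), and Gstm1, a glutathione transferase with close paralogs (2.41 and 2.04 CPM in induced cells, against 8.14 and 7.23 CPM in uninduced cells, -1.71 ± 0.45, adjusted p = 0.0104). Leaving out induced replicate 2 ended both calls (-0.31 and -1.63, adjusted p = 0.0593 and 0.0589), and Gstm1 also lost its call without induced replicate 1 (-1.87, adjusted p = 0.186).

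Yap1 was the only call among the tested genes of its pathway, while Cpne5 was 1 of 2 copines called. Yap1 (chr9:7931999-8004596, minus strand) makes the coactivator of the Hippo pathway that partners TEAD factors. It had 22.7 and 25.2 CPM in induced cells, against 5.99 and 9.09 CPM in uninduced cells (1.56 ± 0.24, adjusted p = 3.11e-06). At day 0 it had 16.3 and 16 CPM, so uninduced cells lay below day 0 (-1.02, adjusted p = 0.00396) and induced cells did not differ from it past the threshold (0.55, adjusted p = 0.0706). Of 14 tested genes of the Yap, Taz and Tead pathway Yap1 alone was called, and the median was -0.00598. The other 10 of the 24 listed genes had too few counts to be tested. Among these were Tead1, Tead2, Tead3 and Tead4, with 3, 5, 9 and 0 counts over the 4 day 2 libraries. Cyr61, Ctgf and Ankrd1 had 1, 0 and 1 counts. Cpne5 (chr17:29156550-29237797, minus strand), a calcium-dependent membrane-binding copine, had 4.13 and 2.04 CPM in induced cells, against 25.3 and 19.4 CPM in uninduced cells and 12.8 and 14.8 CPM at day 0 (-2.65 ± 0.32 for induced over uninduced, adjusted p = 5.12e-09). Relative to day 0 Cpne5 fell in induced cells (-2.0, adjusted p = 2.84e-05) and rose in uninduced cells (0.65, adjusted p = 0.0402). Of 5 tested copines 2 fell and none rose, beside the 3.22% and 3.0% of all genes. Their median was -0.71, with 1 of the 5 above 0. The second was Cpne7, with 68.9 and 68.1 CPM in induced cells and 98.9 and 95.1 CPM in uninduced cells (-0.50 ± 0.12, adjusted p = 0.00287), a call lost without induced replicate 1 (-0.50, adjusted p = 0.0886). Yap1 and Cpne5 were called in all 13 alternatives.

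**Figure D3:**
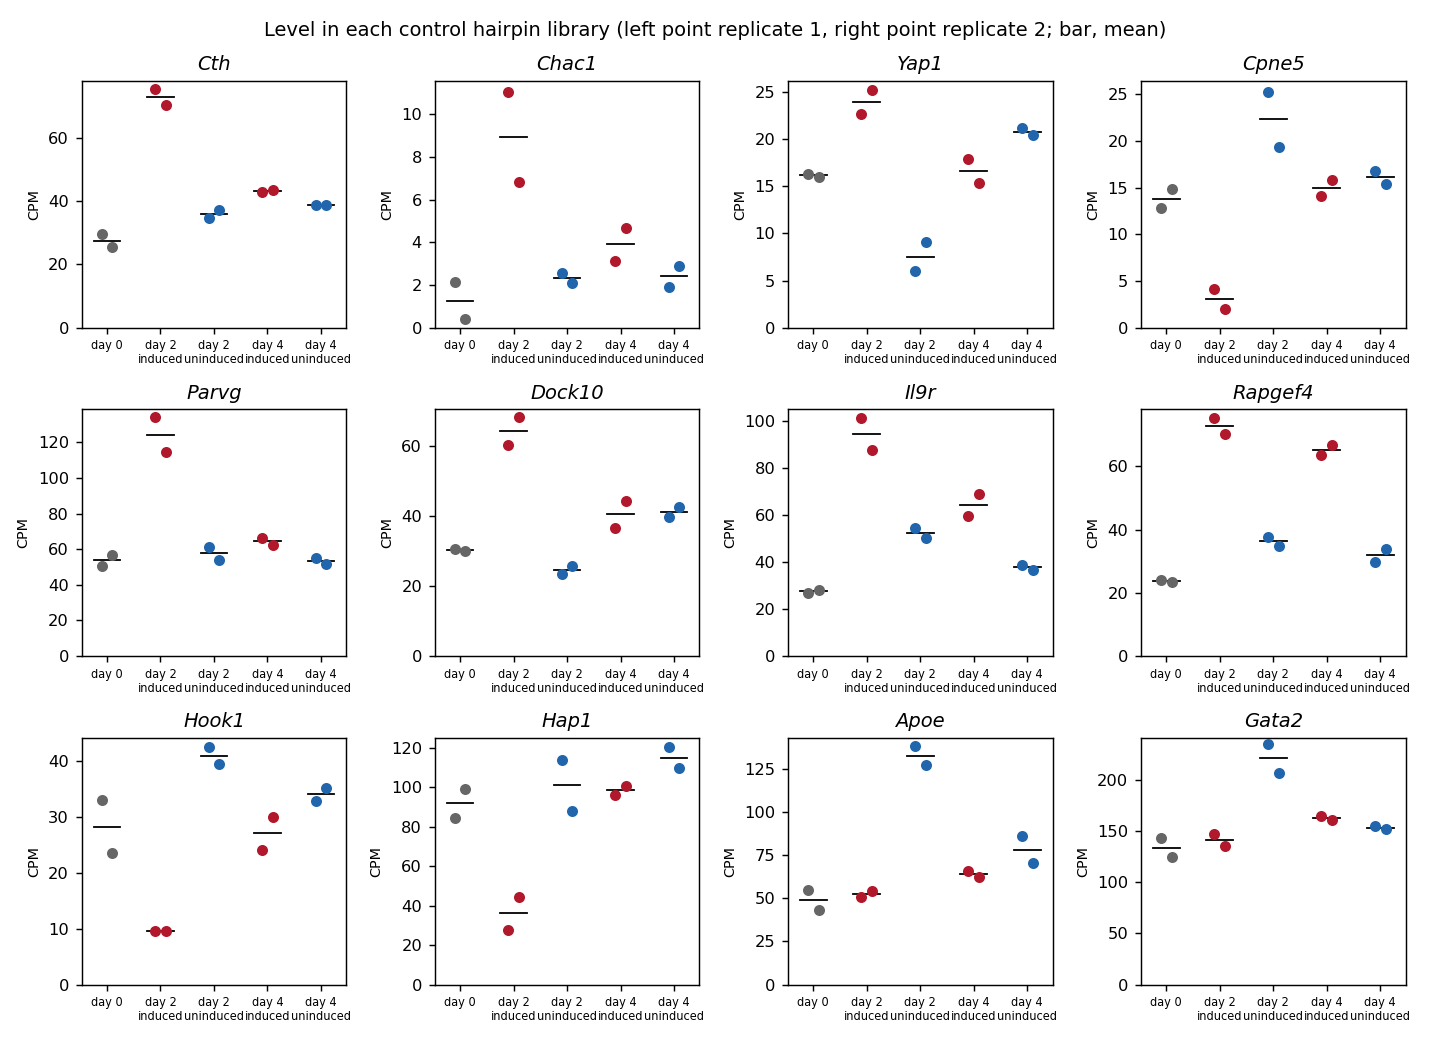
Each panel shows a gene's level (CPM) in each of the 10 control hairpin libraries, by day and population, with replicate 1 on the left, replicate 2 on the right and the mean as a bar. Cth, Chac1, Parvg and Dock10 are highest in the induced libraries of day 2, Cpne5, Hook1 and Hap1 are lowest there, and Apoe and Gata2 are highest in the uninduced libraries of day 2.

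The genes with the smallest adjusted p-values, named after their values were seen, divided by where they stood at day 0. Hook1 (a cargo adaptor of dynein), Hap1 (a trafficking protein that binds huntingtin), Col18a1 (a basement membrane collagen) and Cela1 (an elastase) fell in induced cells relative to both uninduced cells and day 0. Hook1 had 9.64 and 9.54 CPM in induced cells, against 42.4 and 39.4 CPM in uninduced cells and 33 and 23.4 CPM at day 0 (-2.07 ± 0.22 for induced over uninduced, adjusted p = 1.1e-10). Hap1 had 27.9 and 44.3 CPM in induced cells, against 114 and 88.1 CPM in uninduced cells (-1.55 ± 0.15, adjusted p = 1.09e-11). Col18a1 (-1.44 ± 0.15) and Cela1 (-0.90 ± 0.09) had adjusted p = 9.82e-11 each. Relative to day 0 these 4 fell in induced cells by 1.56, 1.44, 1.25 and 0.99 on the log2 scale.

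Apoe, Basp1 and Perp differed in another way, since their uninduced libraries lay above day 0. Apoe, the lipid carrier of lipoproteins, had 51.0 and 54.5 CPM in induced cells, against 138 and 127.1 CPM in uninduced cells (-1.33 ± 0.13, adjusted p = 8.83e-12). The day 0 values were 55.0 and 43.4 CPM, so that the change from day 0 was 0.08 in induced and 1.42 in uninduced cells on the log2 scale. Basp1, a membrane-bound phosphoprotein, had 33.4 and 23.2 CPM in induced cells, against 75.8 and 77.4 CPM in uninduced cells and 22 and 20.7 CPM at day 0 (-1.37 ± 0.15 for induced over uninduced, adjusted p = 5.71e-10). Perp, a p53 target of cell junctions, had 57.5 and 50.4 CPM in induced cells, against 105 and 112 CPM in uninduced cells and 35.8 and 31.2 CPM at day 0 (-0.99 ± 0.12, adjusted p = 1.12e-08). Of 18 p53 targets tested, Perp fell, Sesn2 rose and 16 did not pass (median 0.0583). All of these genes kept their calls in the 13 alternatives, Sesn2 apart.

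Parvg and Dock10 rose and were called in all 13 alternatives. Parvg, a parvin that links integrins to actin in blood cells, had 134 and 114 CPM in induced cells, against 61.2 and 54.1 CPM in uninduced cells (1.15 ± 0.12, adjusted p = 9.82e-11). Dock10, an exchange factor for small GTPases, had 60.2 and 68.1 CPM in induced cells, against 23.6 and 25.7 CPM in uninduced cells (1.35 ± 0.16, adjusted p = 4.47e-09). For both genes the induced libraries of day 2 lay above all other control libraries. The largest rise among genes outside predicted models, pseudogenes and antisense genes was that of Nanog, a pluripotency factor: 6.54 and 10.2 CPM in induced cells, against 0.856 and 2.33 CPM in uninduced cells and 2.13 and 3.52 CPM at day 0 (2.09 ± 0.47 for induced over uninduced, adjusted p = 0.00195). DESeq2 did not call Nanog (2.24, adjusted p = 0.0594). Nanog has near-identical pseudogene copies in the mouse genome, and the handling of reads with several matches was not stated. Espnl had 11.4 and 6.13 CPM in induced cells, against 2.14 and 2.80 CPM in uninduced cells (1.88 ± 0.40). Its call was lost without induced replicate 1 (1.25). Other large rises kept fewer calls than Parvg and Dock10. Mei4 was called in 4 of 12 alternatives, Dhdh in 6 of 12, Trpm6 in 7 of 13 and Slc26a10 in 8 of 13. Hoxc5, Lgr4 and Scmh1 were each called in 10 of 13.

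The largest falls were of genes nearly absent in induced cells. Adamts20, a secreted metalloprotease, had 0 and 1 counts in induced cells, against 14 and 30 counts in uninduced cells, which at equal depth is a ratio of uninduced to induced of 29 (95% counting interval 4.95 to 1170). Dact2, a regulator of Wnt and TGF-beta signalling, had 2 and 0 counts in induced cells, against 18 and 35 counts in uninduced cells (ratio 17.5, 4.61 to 148). Afap1l1, an actin-binding adaptor, had 2 and 0 counts in induced cells, against 20 and 23 counts in uninduced cells (ratio 14.2, 3.7 to 121). Lrrc23, Trpc6, Arhgap26, Gramd3, Osbpl10, Ramp1 and Ces1d had 2 or 3 counts summed over the induced libraries, with ratios of 7.04 to 9.24. Plekhh2 had 1.72 and 0.681 CPM in induced cells, against 10.3 and 11.4 CPM in uninduced cells (-2.97 ± 0.47, adjusted p = 4.23e-06). Dact2, Afap1l1 and Plekhh2 were called in all 13 alternatives. Without induced replicate 1 the calls of Adamts20 (adjusted p = 0.076) and of those 7 genes (adjusted p = 0.093 to 0.535) were lost, and those of Trpc6, Gramd3, Osbpl10, Ramp1 and Ces1d were also lost without at least 1 other library.

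Of 20 tested genes of the cytoskeleton and adhesion list 6 fell, none rose and 14 were not called, beside the 3.22% of all genes that fell. The median was -0.0779, with 7 of the 20 above 0. The 6 were the integrin chains Itga2b, Itga4, Itga5 and Itgb2, the tetraspanin Cd9 and the intermediate filament gene Vim. Itgb2, the shared beta chain of leukocyte integrins, had 16.9 and 17.7 CPM in induced cells, against 34.3 and 35.0 CPM in uninduced cells (-1.01 ± 0.19, adjusted p = 0.00019). Vim had 241 and 236 CPM in induced cells, against 333 and 346 CPM in uninduced cells and 564 and 560 CPM at day 0 (-0.51 ± 0.08 for induced over uninduced, adjusted p = 8.18e-06), so that both populations lay below day 0. Itga2b (-0.72 ± 0.16), Itga5 (-0.39 ± 0.09), Itga4 (-0.28 ± 0.09) and Cd9 (-1.26 ± 0.30) made up the remainder. Vim alone was called in all alternatives: without induced replicate 1 the other 5 were not (Itgb2 -0.97, Itga2b -0.50, Itga5 -0.27, Itga4 -0.19 and Cd9 -0.93, adjusted p = 0.0505 to 0.466), without uninduced replicate 1 Itga5 (-0.27) and Itga4 (-0.27) were not, and without uninduced replicate 2 Itga4 (-0.29) and Cd9 (-1.09) were not.

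Of 19 tested genes of the erythroid and megakaryocyte list 6 fell and 1 rose, beside the 3.22% and 3.0% of all genes. The median was -0.209. Hba-a1, an alpha globin, had 164 and 137 CPM in induced cells, against 247 and 248 CPM in uninduced cells (-0.69 ± 0.09, adjusted p = 1.7e-07). Hbb-bt, an adult beta globin, had 15.1 and 12.9 CPM in induced cells, against 27.8 and 31.9 CPM in uninduced cells (-1.08 ± 0.20, adjusted p = 0.000155), and its neighbour Hbb-bs fell by 0.66 on the log2 scale. The globin genes have near-identical copies, so how reads were split between them is uncertain. Car1, Itga2b and the blood clotting gene Vwf were the other falls (-0.55, -0.72 and -0.82). Gata1, the erythroid regulator, did not pass (0.05 ± 0.08). Summed over the 22 genes the list stood at 4012 and 4143 CPM in induced cells, against 4430 and 4442 CPM in uninduced cells. Without induced replicate 1 the calls of Car1 (-0.29), Itga2b (-0.50) and Vwf (-0.69) were lost, and Car1 was also lost without uninduced replicate 1 (-0.52) or 2 (-0.58) and Vwf without uninduced replicate 1 (-0.73).

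Of 12 tested stem and progenitor genes 1 rose and 2 fell (median 0.0356). Gata2, a regulator of blood stem cells and mast cells, had 147 and 136 CPM in induced cells, against 236 and 207 CPM in uninduced cells and 143.4 and 124.6 CPM at day 0 (-0.62 ± 0.09 for induced over uninduced, adjusted p = 2.16e-06). Relative to day 0 Gata2 did not pass in induced cells (0.09, adjusted p = 0.597) and rose in uninduced cells (0.71, adjusted p = 4.07e-08). Hlf rose (1.10) and Ikzf2 fell (-0.75), both at calls lost without induced replicate 1 (1.12 and -0.57), induced replicate 2 (1.09 and -0.86) or uninduced replicate 2 (0.57 and -0.53). Kit and Myb did not pass (-0.18 ± 0.08 and 0.03 ± 0.07).

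Egr1, an immediate early gene of growth factor signalling, had 105 and 92.7 CPM in induced cells, against 50.1 and 55.5 CPM in uninduced cells and 24.1 and 26.9 CPM at day 0 (0.91 ± 0.13 for induced over uninduced, adjusted p = 3.97e-07). It was the 1 rise among 25 immediate early and growth factor genes, with 1 fall, the phosphatase gene Dusp2 (-1.61 ± 0.39), and a median of -0.0233. No call was made among 20 genes of cytokine and STAT signalling (median -0.0179). Of 17 interferon genes 4 fell and none rose, beside the 3.22% and 3.0% of all genes, with 1 above 0 and a median of -0.275. The 4 were Xaf1 (-1.84 ± 0.42), an inhibitor of an anti-apoptotic protein, Irf1 (-0.94 ± 0.28), an interferon regulatory factor, Ddx58 (-0.91), a sensor of viral RNA, and Ifi27 (-0.90). Without induced replicate 1 none of these 4 nor Dusp2 was called (-1.27, -1.35, -0.73, -0.86 and -2.02, adjusted p = 0.0747 to 0.423), Irf1 and Ddx58 were not called without any 1 of the other 3 libraries, Ifi27 was not without uninduced replicate 2 (-0.36), and DESeq2 called none of the 5. Of 13 genes of the small RNA machinery, which processes the hairpin, Tnrc6a rose (0.37 ± 0.10) and Tarbp2 fell (-0.48 ± 0.13). Both calls were lost without induced replicate 2 (0.26 and -0.30, adjusted p = 0.206 and 0.291), Tnrc6a also without uninduced replicate 2 (0.30) and Tarbp2 without uninduced replicate 1 (-0.43).

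The counts for growth and division genes stand beside the 3.0% of all genes that rose and the 3.22% that fell. Of 28 mitosis genes 1 rose and 2 fell (median -0.0584), and of 32 replication genes 1 rose (median -0.000558). Mki67, a marker of dividing cells, had 1393 and 1452 CPM in induced cells, against 1153 and 1067 CPM in uninduced cells (0.36 ± 0.07, adjusted p = 0.000456), called in all alternatives. Ribosomal protein genes had 5 rises among 44 (median 0.0345) and ribosome biogenesis genes 1 among 29 (median 0.0322). Of 12 clustered histone genes 2 rose (median 0.276), and most transcripts of this family lack a polyA tail. No gene of 12 in the BCL2 family of cell death regulators was called (median 0.0513), and of 27 lysosome and autophagy genes 1 rose and 1 fell (median -0.0667).

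Markers of other cells were checked because a gate on BFP could hold a mixture. Of 20 neutrophil and granule genes, which mark granulocytic cells, none was tested and 18 had 0 counts in the 4 libraries, Mpo and Elane among them. Of 23 monocyte and macrophage genes 15 had 0 counts and 4 were tested, of which Apoe fell (median -0.0626). The sum over that list was 61.8 and 71.3 CPM in induced cells, against 152 and 140 CPM in uninduced cells, and most of it was Apoe, whose values are given above. The other 3 tested members did not pass (Ccr2 0.30 ± 0.55, Cd68 0.27 ± 0.42 and Cd163 -0.40 ± 0.41). Of 23 B, T and NK cell genes 19 had 0 counts and the 1 tested was not called, and of 15 dendritic cell and MHC class II genes 11 had 0 counts and none of 3 tested was called. Of 14 stroma and endothelium genes 5 had 0 counts, and of 6 tested Fn1 and Dcn fell, beside the 3.22% of all genes that fell. Fn1, fibronectin, had 88.1 and 98.8 CPM in induced cells, against 205 and 158 CPM in uninduced cells (-0.95 ± 0.11, adjusted p = 1.29e-09). Dcn, a proteoglycan of connective tissue, had 6.2 and 6.13 CPM in induced cells, against 12.4 and 12.6 CPM in uninduced cells (-1.02 ± 0.31, adjusted p = 0.0358). Its call was lost without any 1 of the 4 day 2 libraries (adjusted p = 0.0848 to 0.308), with DESeq2 (0.321) and with libraries thinned to equal depth (0.379). The stroma list summed to 114 and 122.7 CPM in induced cells, against 232.2 and 184 CPM in uninduced cells, and most of each sum was Fn1. The other 4 tested members were not called, and the median of the 6 was -0.076, with 3 above 0. Of 20 mast cell, basophil and eosinophil genes 9 had 0 counts, and of 6 tested 1 fell (median 0.0787). The mast cell list summed to 1085 and 1037 CPM in induced cells, against 1127 and 1159 CPM in uninduced cells. For stem and progenitor genes the sums were 2365 and 2503 CPM in induced cells, against 2619 and 2512 CPM in uninduced cells. With the erythroid list above, these were the largest sums among the lineage lists. Such lists differ in size and choice of genes, so their sums do not rank lineages. The part of these markers in the adhesion, lipid and erythroid differences was not tested.

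At day 4 the populations differed in few genes. In all, 8 genes were called at that day (0.0741%), 4 higher (0.0371%) and 4 lower (0.0371%). At an unadjusted p under 0.05 in the same edgeR test stood 498 of 10791 genes, against 2043 at day 2. The 498 do not exceed the number that would pass with no difference in any gene. The 8 were also called at day 2 in the same direction, and they are named here after their values were seen: Rapgef4, Il9r, Mettl9 and Egr1 were higher and Hbb-bt, Hbb-bs, Slc26a1 and Sec11c lower. Rapgef4, an exchange factor for Rap GTPases that answers cyclic AMP, had 75.4 and 70.2 CPM in induced cells, against 37.7 and 35.0 CPM in uninduced cells at day 2, and 63.6 and 66.7 CPM in induced cells, against 29.8 and 33.8 CPM in uninduced cells at day 4 (1.03 ± 0.14 and 1.00 ± 0.12). An antisense gene, Rapgef4os2, overlaps its exons, and the strand setting was not stated. Il9r, the interleukin 9 receptor, had 101 and 87.9 CPM in induced cells, against 54.4 and 50.1 CPM in uninduced cells at day 2, and 59.8 and 69.0 CPM in induced cells, against 38.8 and 36.7 CPM in uninduced cells at day 4 (0.89 ± 0.12 and 0.77 ± 0.12). Slc26a1, an anion exchanger whose exons overlap Idua, had 49.2 and 57.2 CPM in induced cells, against 114 and 96.1 CPM in uninduced cells at day 2, and 59.5 and 64.3 CPM in induced cells, against 86.5 and 87.3 CPM in uninduced cells at day 4. For these 3 genes the populations did not overlap on either day. The day 2 call of Sec11c, a signal peptidase subunit, was lost without induced replicate 1 (-0.38, adjusted p = 0.125) or uninduced replicate 2 (-0.30, adjusted p = 0.119).

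Most genes called at day 2 kept their sign at day 4 with a much smaller size. Of the 324 that rose at day 2, 258 (79.6%) had a log2 fold change above 0 at day 4, and of the 348 that fell, 262 (75.3%) had one below 0, where 50.4% of all tested genes lay above 0. The medians at day 4 were 0.091 and -0.11. These genes were chosen by passing the threshold at day 2, a choice that favours large day 2 values. How much of the smaller size at day 4 comes from that choice was not tested. No library is shared between the day 2 and day 4 contrasts. Genes whose difference between days was itself called were all among the 672. Both tests use the day 2 libraries, so that overlap was largely fixed in advance. Of these genes 26 had a more positive change at day 2 (0.241%) and 45 a more negative one (0.417%), which makes 71 (0.658%). That count ran from 30 to 90 when a library was left out, with 30 lacking induced replicate 1, and was 22 with DESeq2. Cth (0.87 ± 0.19, adjusted p = 0.00736), Yap1 (1.86 ± 0.30, adjusted p = 6.61e-05) and Cpne5 (-2.55 ± 0.40, adjusted p = 3.04e-05) were among the 71, and Chac1 was not (1.55 ± 0.64, adjusted p = 0.368). At day 4 Yap1 had 17.9 and 15.4 CPM in induced cells and 21.1 and 20.5 CPM in uninduced cells, and Cpne5 had 14.1 and 15.9 CPM in induced cells and 16.8 and 15.4 CPM in uninduced cells.

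**Figure D4:**
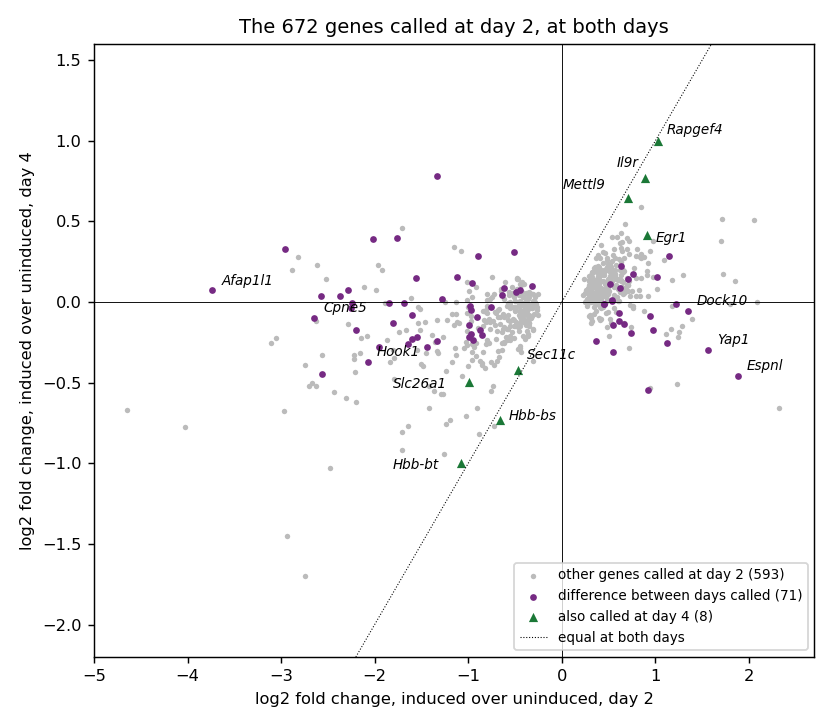
Each point is 1 of the 672 genes called at day 2, with its log2 fold change of induced over uninduced cells at day 2 on the horizontal axis and at day 4 on the vertical axis; the dotted line marks equal changes. The 8 green triangles, called at both days, lie near or along that line, and the 71 purple points, whose difference between days was called, lie near a day 4 change of 0 or across it.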

How the data were processed

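The authors deposited a table of read counts per gene, whole numbers that are not normalized, with a deposited transcript length (another unit: bases). The labels' protocols describe polyA selection and single-end reads of 76 bases, and name HTSeq and hg19. Per the submitters' processing notes, mm10 and GRCm38 were the builds, featureCounts 1.6.3 the counter, STAR 2.6.1a the aligner, and Trimmomatic 0.36 and FastQC 0.11.5 the read tools. Identifiers are mouse, and 51335 of 53274 shared genes (96.4%) have GRCm38 coordinates. Settings for strand and multiple matches: not given in the sources used here.

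Of 53465 genes, 10791 passed filterByExpr. Counts were scaled by TMM factors (0.968 to 1.013) and tested two-sided with edgeR 4.0.16 (R 4.3.3) in 1 model of all 14 libraries, with group as the only term. CPM refers to counts of tested genes after that scaling, while summed lists and the limits of a 0 count use whole library totals. A fold change is log2, induced over uninduced. Alternatives were RLE scaling, DESeq2 1.42.0, no filter, a 5 CPM filter in 2 libraries, the 4 day 2 or 10 control libraries alone, a replicate block, thinning, a length offset and leaving out each day 2 library. Scripts were tested on simulated data.

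Genes named were Cth, Chac1, Yap1 and Cpne5, the 12 largest rises and falls without overlap, and up to 4 called members of each list. The 5 largest differences between days and 4 label checks were also named. Not every gene of these sets is described in the text. Genes by smallest adjusted p, genes called at day 4, Atf4, further called members of 5 lists (stress, synthetases, glycolysis, adhesion, erythroid) and uncalled genes given for contrast were added after the values were seen. The groups, genes and lists were chosen with earlier results of these data known. Replicate numbers were not used to pair samples in the main model, and whether they pair them is not known. A few results are not reported here.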

Additional observations from a re-analysis of the deposited data

Results flagged for a closer look

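The difference between induced and uninduced cells was not the same at day 2 as at day 4 for 28 of the 121 named genes called at day 2. This was edgeR's test of the day 2 minus day 4 log2 fold change (adjusted over all genes tested). Over all 10791 genes tested, 71 passed it (0.658%). Many genes were named for large or called changes at day 2, and 5 for the largest differences between days. That choice by itself favours a high count among named genes. Among genes that rose at day 2 the difference between days was 2.34 for Espnl, 1.86 for Yap1, 1.40 for Dock10, 1.03 for Scd1, 0.87 for Cth, 0.87 for Parvg, 0.86 for Hist1h2bc, 0.61 for Hist1h1c, 0.59 for Cars and 0.41 for Ldha. Each of these was more positive at day 2. Among genes that fell at day 2 it was -3.81 for Afap1l1, -3.29 for Arhgap26, -2.61 for Ctla2a, -2.55 for Cpne5, -2.41 for Nfib, -2.21 for Eno2 and -2.03 for Egln1. These 7 had low levels, with Eno2 at 3.10 and 2.04 CPM and Ctla2a at 2.07 and 2.73 CPM in the induced libraries. It was -1.70 for Hook1, -1.38 for Atp8b2, -1.33 for Hap1, -1.18 for Ifi27, -1.16 for Col18a1 and -1.09 for Apoe. Differences under 1 in size were -0.82 for Vim, -0.81 for Cela1, -0.77 for Perp, -0.72 for Fn1 and -0.71 for Gata2. Each of these falls was more negative at day 2. Vim had the opposite sign at day 4 (0.31), where it measured 492 and 502 CPM in induced cells, against 406 and 395 CPM in uninduced cells.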

How the results depend on the processing

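Of 121 named genes called at day 2, 39 were called under each of the 13 alternatives, and 120 had the same direction in each; Trib3 ran from 0 without induced replicate 1 to 0.96 without induced replicate 2. Trib3 and 69 other named genes were no longer called without induced replicate 1. With induced or uninduced libraries left out, the genes called ran from 228 to 624, rises from 113 to 306, falls from 115 to 318, differences between days from 30 to 90, stress genes from 5 to 15 and tRNA synthetases from 1 to 7. DESeq2 called 223 genes (107 rises, 116 falls), 22 differences between days, 7 stress genes and 3 synthetases. With libraries thinned to equal depth these were 390 (187 and 203), 54, 7 and 3. A fit to the 4 day 2 libraries gave 209 rises and 1 synthetase, and could not give the difference between days. The causes were not tested, though thinning and left-out libraries remove counts or samples by construction. With a replicate block 723 genes were called (341 rises, 382 falls). Differences between replicates 1 and 2 correlated at -0.00892 between induced and uninduced cells. That value cannot decide whether replicate numbers pair the samples, because counting error also lowers it. Uncalled genes changed sign without a library: Kmt2c ran from -0.21 to 0.05 (0.04 without uninduced replicate 1), Trp53 from -0.22 to 0.11, and Ogdh from -0.04 to 0.29. Depth limits genes under about 5 CPM, since induced replicate 2 allows 2 CPM at a count of 0.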
